A study of Mus musculus with 6 samples.

Results

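Somatic testis cell genes are the 40 genes of a list of markers of the cells of the testis that are not germ cells. The list gives its genes by name and sets no threshold on their values here: 10 mark Leydig cells, 18 mark Sertoli cells, 8 mark peritubular cells, 2 mark endothelial cells and 2 mark macrophages. Of the 14455 genes with RefSeq mRNA counts in any of the 6 deposited tables, 31 were members of this list, and 9 members were in no table. RNA was sequenced after removal of ribosomal RNA from mature sperm (4 samples) and from testes (2 samples) of C57BL/6 mice, a common inbred strain, with an age of 3 to 5 months in the labels. No genetic change or treatment is named for either group. Sperm had swum out of the caudal epididymis and vas deferens, were filtered, were treated with a buffer that lyses somatic cells and were pooled over mice, and the testes came from these mice. The paper checked sperm purity by microscopy. It also reports that markers of leukocytes, testicular germ cells and epithelial cells could not be amplified by PCR after purification. As a model, a testes sample is a whole organ that holds germ cells beside all the somatic types, whereas a sperm sample is a pool of cells that had left that organ.

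Seminiferous tubules hold the germ cells and the Sertoli cells that nourish them, and a sheath of contractile peritubular cells surrounds each tubule. Leydig cells lie between the tubules, near blood vessels and macrophages, and make testosterone from cholesterol. Pituitary hormones act on receptors of Leydig and Sertoli cells, and the germ cells depend on the androgen and the secreted factors that result. Sperm leave the tubules without these cells, so the genes of the list mark RNA of cells other than sperm in the textbook view, although single genes of it are used by more than a single cell type.

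Depth differed between the groups. Counts on RefSeq mRNA, the known protein-coding transcripts, summed to 33511 to 100027 per sperm sample and to 322625 and 314273 in testes, which was 9.14 to 12.1% of all counts of a sample. The tables give an estimated count of fragments per transcript, and levels are given below as ppm (counts per 1000000) of the RefSeq mRNA counts of the sample, or as FPKM, which also divides by transcript length. In these terms 3 counts, taken as the smallest count to be read, were 30.0 to 89.5 ppm in sperm and 9.30 and 9.55 ppm in testes. The study left out sperm replicate 1 after a correlation check, so means and tests use sperm replicates 2 to 4 and both testes samples, and replicate 1 is given beside them. In such bulk samples, fewer cells of a type and less RNA per cell cannot be told apart. As background, 20 genes of haploid germ cells took 2902, 4237 and 3625 ppm in sperm replicates 2 to 4 and 1816 ppm in sperm replicate 1. Testes had 3986 and 4246 ppm, so the groups overlapped and the sum does not tell them apart. By edgeR, 6 of the 16 tested were called lower in sperm and 1 higher, against 17.6% and 4.15% of all genes tested. Some of those called lower had 0 counts in every sperm sample and passed the filter on low values only through testes.

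Among the 40 genes, Dhh, the Sertoli cell ligand desert hedgehog, and Insl3, a Leydig cell hormone needed for descent of the testis, were the only 2 called lower in sperm, at an adjusted p below 0.05 and a fold above 2 by edgeR. They are 2 of the 7 members that could be tested, and 17.6% of all genes tested were called lower, so a share near that background is no result about the list. Amhr2, the receptor of anti-Mullerian hormone, had its highest level in sperm replicate 1, on 12 counts in the sample that the study left out. Other members, Star and Tagln among them, also had their highest level in a sperm sample. The promoters of Insl3, Dhh and Amhr2 are printed because Nr5a1, a nuclear receptor of steroid-making cells, is itself on the list and binds sites with the core AAGGTC. The sequences are from RefSeq (GRCm38.p6), cover 250 bases before an annotated start and run 5′ to 3′ on the strand of the gene, and capitals mark AAGGTC on either strand.
Insl3, chr8:71689002-71689251, plus strand: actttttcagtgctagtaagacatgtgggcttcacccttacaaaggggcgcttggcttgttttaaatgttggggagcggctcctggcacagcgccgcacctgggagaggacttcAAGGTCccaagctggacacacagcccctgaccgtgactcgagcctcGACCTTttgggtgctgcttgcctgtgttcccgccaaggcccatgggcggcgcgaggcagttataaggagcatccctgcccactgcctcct
Dhh, chr15:98898541-98898790, minus strand: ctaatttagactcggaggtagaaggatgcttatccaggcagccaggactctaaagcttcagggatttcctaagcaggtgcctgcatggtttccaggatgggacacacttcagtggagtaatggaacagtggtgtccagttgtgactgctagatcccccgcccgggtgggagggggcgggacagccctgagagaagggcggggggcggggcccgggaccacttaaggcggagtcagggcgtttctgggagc
Amhr2, chr15:102445117-102445366, plus strand: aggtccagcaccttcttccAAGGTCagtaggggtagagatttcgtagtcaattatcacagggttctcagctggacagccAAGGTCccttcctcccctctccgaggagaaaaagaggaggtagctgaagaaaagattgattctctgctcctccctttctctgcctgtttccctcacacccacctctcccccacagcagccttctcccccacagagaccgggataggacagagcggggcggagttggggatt

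The Insl3 window held 2 matches, which began 136 and 90 bases before the start, the Amhr2 window held 2 at 231 and 171 bases, and the Dhh window held 0. Over all 32851 RefSeq promoters of this length, 10.6% held the letters. Of the members, 25 had a promoter in the table, with 28 windows, and 4 of these windows (14.3%) held them, those of Amhr2, Gata1, Insl3 and Ptprc. A match of 6 letters is a description of the sequence and not a site.

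The first comparison asked how much of the mRNA in sperm and in testes came from genes of these somatic cells. Their summed level was 802, 429.9, 1403 and 258 ppm in sperm replicates 1 to 4, and 1371 and 1277 ppm in testes replicates 1 and 2. Sperm replicate 3 lay above both testes samples and the other 3 sperm samples lay below them, so the groups overlapped. The mean was 697 ± 617 ppm (SD, n = 3) for sperm and 1324 ± 66.5 ppm (SD, n = 2) for testes, which gave a ratio of 0.526. These sums rested on 34, 43, 47 and 14 counts in sperm and on 442 and 401 counts in testes.

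Star, Dhh and Tagln carried most of these counts in every sample but sperm replicate 4. They held 64.7%, 74.4%, 100% and 42.9% of the list's counts in sperm replicates 1 to 4, whereas testes samples had 71.7% and 77.0%. Without Star, the member with the most counts in testes, the sums became 802, 269.9, 209 and 147 ppm in sperm and 849.8 and 806 ppm in testes. Every sperm sample then lay below both testes samples, and the ratio of the means fell from 0.526 to 0.252, with 209 ± 61.4 ppm (SD, n = 3) in sperm and 828 ± 31.3 ppm (SD, n = 2) in testes. Leaving out Star, Dhh and Tagln together, a choice made after the values were seen, left 37 genes with 283, 110.0, 0 and 147 ppm in sperm, 388 and 293 ppm in testes, and a ratio of 0.252. Without sperm replicate 3, which had 40 of the 62 Star counts of the 3 sperm samples compared, the ratio over all 40 genes was 0.260.

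**Figure D1:**
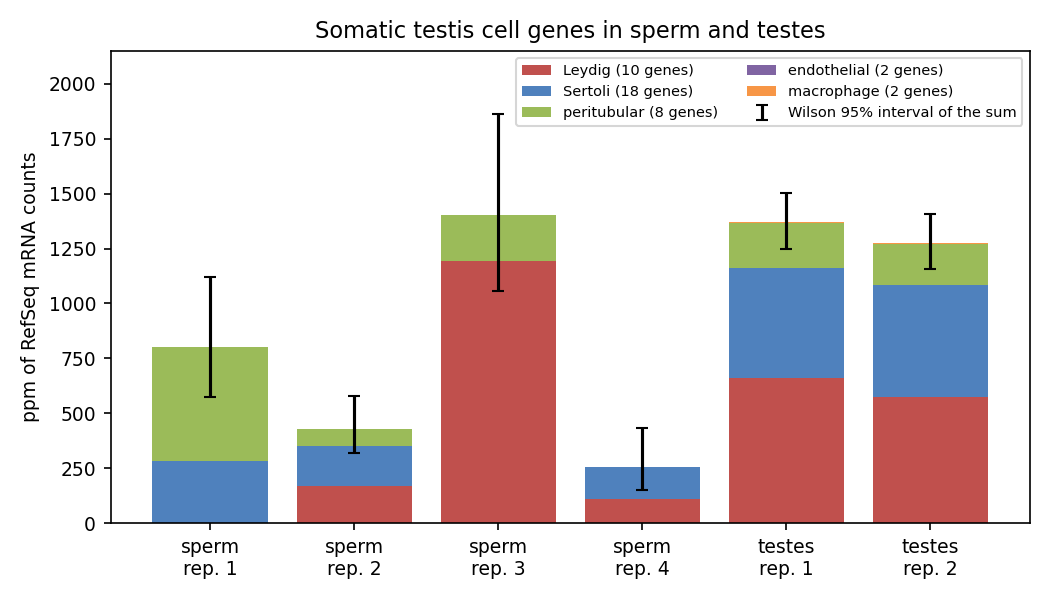
Summed level of the somatic testis cell genes in each sample, in ppm of RefSeq mRNA counts, stacked by cell group, with the Wilson 95% interval of the sum as a line. Sperm replicate 3 reached 1403 ppm through the Leydig slice, while macrophage genes (6.20 and 6.36 ppm in testes) and endothelial genes (0 in all 6 samples) are too small to see.

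Leydig cell genes are ordered here from the entry of cholesterol to the hormone. Star, which carries cholesterol into the mitochondrion (NM_011485, GRCm38.p6 chromosome 8, 25808474 to 25815982), had 0, 16, 40 and 6 counts in sperm replicates 1 to 4, whereas testes had 168 and 148. Its level was 0, 160.0, 1194 and 110.4 ppm in sperm and 521 and 471 ppm in testes. Sperm replicate 3 was more than 2-fold above either testes sample, sperm replicates 2 and 4 lay below both, and replicate 1 had no count. In FPKM it stood at 14.7 and 14.3 in testes, rank 457 and 518 among RefSeq mRNA genes there, and at 0, 3.79, 27.5 and 2.96 in sperm. Across sperm replicates 2 to 4 the log2 difference of sperm from testes was -0.80 ± 0.90 (SE), with an adjusted p of 0.553 by edgeR's quasi-likelihood test with Benjamini-Hochberg adjustment. Without sperm replicate 3 it was -1.99 ± 0.79 (SE), with an adjusted p of 0.0596 by edgeR.

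The enzymes that follow Star had few counts even in testes. Cyp11a1, which cuts the side chain of cholesterol, had 0 and 4 counts in testes replicates 1 and 2. Cyp17a1, which makes androgen precursors, had 4 and 10, and Hsd17b3, which makes testosterone, had 0 and 1. Hsd3b1 had 7 and 3 counts and Hsd3b6 had 0 and 2, and the split between this pair is uncertain because they are near-identical copies. In sperm, a single Cyp17a1 count in replicate 2 was the only count of these 5 enzymes. Pooled over sperm replicates 2 to 4, this was 1 count where the mean testes level would have given 9.18. That is 5.32 ppm with a Wilson 95% interval of 0.940 to 30.2 ppm, against 34.1 and 63.6 ppm in testes.

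Insl3 (chromosome 8, 71689252 to 71690577) had 8 and 3 counts in testes, or 24.8 and 9.55 ppm, and 0 counts in each of the 4 sperm samples. It was called lower in sperm by edgeR, with a log2 difference of -4.63 ± 1.77 (SE) and an adjusted p of 0.0497. It passed the filter on low values only through the testes samples, where it was high, and its adjusted p by edgeR was 0.245 with no filter and 0.133 with a filter of at least 10 counts in all. The fitted difference, and the SE worked out from it, depend on the small count edgeR adds. The floor of 3 counts pooled over sperm replicates 2 to 4 was 16.0 ppm, above the level in testes replicate 2 and below that in testes replicate 1, so no bound on the fold is given. Insl3 lies within the span of Jak3, a kinase gene, whose counts were 3 in sperm replicate 2 and 0 in the other samples. Whether the counting used strand is not stated.

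Nr5a1 (chromosome 2, 38692656 to 38714542) had 21 and 7 counts in testes, or 65.1 and 22.3 ppm, and 0 in all 4 sperm samples. Its testes mean was 2.74 times the pooled floor of 16.0 ppm, or 1.39 times without testes replicate 1 and 4.08 times without testes replicate 2. These are not bounds on the fold. The Wilson 95% upper limit for 0 counts pooled over sperm replicates 2 to 4 was 20.4 ppm, and the interval of testes replicate 2 was 10.8 to 46.0 ppm. Nr5a1 was not tested because it did not reach the minimum level in 2 samples. Scarb1, the receptor that takes up cholesterol from lipoprotein, had 5 and 3 counts in testes and 0 in sperm, and Lhcgr, the receptor of luteinizing hormone, was in none of the tables. Leydig cell genes without Star, 9 in all, had 45 and 33 counts in testes and a single count in sperm. Pooled over sperm replicates 2 to 4 this was 5.32 ppm (Wilson 95% interval 0.940 to 30.2), where the testes level of 122 ppm would have given 23.0 counts.

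The Leydig sum therefore followed Star in sperm. It was 0, 170.0, 1194 and 110.4 ppm in sperm replicates 1 to 4 and 660.2 and 576 ppm in testes, with means of 491 ± 609 ppm (SD, n = 3) and 618 ± 59.6 ppm (SD, n = 2) and a ratio of 0.795. Without sperm replicate 3 the ratio was 0.227.

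Sertoli cell genes gave the most even sum in testes, 503 and 509.7 ppm, against 283, 180.0, 0 and 147 ppm in sperm replicates 1 to 4. All sperm samples lay below both testes samples, and the means were 109 ± 95.9 ppm (SD, n = 3) and 506 ± 4.97 ppm (SD, n = 2), a ratio of 0.215. Without Dhh this order did not hold, since sperm replicate 1 then lay above both testes samples. Dhh, which signals from Sertoli cells to Leydig and peritubular cells (chromosome 15, 98881615 to 98898562), had 93 and 111 counts in testes and 0, 9, 0 and 0 in sperm. Its level was 288 and 353 ppm in testes and 90.0 ppm in sperm replicate 2, below both. In FPKM it stood at 13.9 and 18.3 in testes, at rank 491 and 399. Dhh was called lower in sperm, with a log2 difference of -3.48 ± 1.28 (SE) and an adjusted p of 0.0477 by edgeR. Of the sperm samples only replicate 2 reached the minimum level, at 3.63 FPKM. Dhh thus passed the filter on low values only with the testes samples, where it was high. Its adjusted p by edgeR was 0.148 with no filter and 0.105 with a filter of at least 10 counts in all. The difference was -9.01 without sperm replicate 2, which held all of its sperm counts, and -2.73 and -2.74 without sperm replicate 3 or 4. The call was lost without sperm replicate 4 and without either testes sample, with adjusted p by edgeR of 0.219, 0.339 and 0.826.

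Amhr2 (chromosome 15, 102445002 to 102454640) had 12, 1, 0 and 2 counts in sperm and 9 and 2 in testes. Its level was 283, 10.0, 0 and 36.8 ppm in sperm and 27.9 and 6.36 ppm in testes, so sperm replicate 1 was highest and the groups overlapped. The log2 difference over sperm replicates 2 to 4 was -0.38 ± 1.21 (SE), with an adjusted p of 0.855 by edgeR, and its sign changed with the processing. Amh, the hormone itself, had 3 counts in each testes sample and 0 in sperm.

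Clu, a secreted chaperone that many epithelia also make (chromosome 14, 65968483 to 65981548), had 0, 3, 0 and 2 counts in sperm and 10 in each testes sample. The level in testes was 31.0 and 31.8 ppm, and in sperm replicates 2 and 4 it was 30.0 and 36.8 ppm. The sperm values rest on 3 and 2 counts, at or under the smallest count to be read, and the log2 difference was -0.73 ± 1.42 (SE) with an adjusted p of 0.746 by edgeR. Ctsl, a lysosomal protease, had 0, 1, 0 and 4 counts in sperm and 8.18 and 9.78 in testes, with a log2 difference of -0.45 ± 1.44 (SE) and an adjusted p of 0.853 by edgeR.

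The other Sertoli cell genes had at most 8 counts in any sample. Among the transcription factors, Wt1 had 6 and 1.41 counts in testes, Gata4 had 2 and 0, and Rhox5 had 1 in each, all with 0 in sperm. Sox9 had a single count in sperm replicate 2 and none in testes, and Gata1 was in no table. Of the subunits of inhibin and activin, Inhbb had 8 and 6 counts in testes and 1 in sperm replicate 2, Inha had 2 and 4 in testes, and Inhba was in no table. Gdnf, which maintains spermatogonial stem cells, had 8 and 2 counts in testes and 0 in sperm. Kitl, the ligand of the Kit receptor on germ cells, had 5 and 3 in testes and 2 in sperm replicate 2. Cldn11, a protein of the tight junctions between Sertoli cells, had 2 and 6 in testes, Vim, an intermediate filament, had 5 and 1, and Fshr, the receptor of follicle-stimulating hormone, was in no table. Without Dhh, 17 Sertoli cell genes had 17 counts over sperm replicates 2 to 4, where the testes level would have given 34.8. Their pooled level was 90.5 ppm (Wilson 95% interval 56.5 to 145) against 214 and 157 ppm in testes. By sample these 17 genes had 283, 90.0, 0 and 147 ppm in sperm replicates 1 to 4. Sperm replicate 1 was thus above both testes samples, and sperm replicates 2 to 4 were below both.

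Peritubular cell genes were led by Tagln, an actin-binding protein of smooth muscle (chromosome 9, 45929628 to 45936058), with 22, 7, 7 and 0 counts in sperm and 56 and 50 in testes. Its level was 519, 70.0, 209 and 0 ppm in sperm and 174 and 159 ppm in testes. Sperm replicates 1 and 3 lay above both testes samples, and replicates 2 and 4 lay below. The log2 difference over sperm replicates 2 to 4 was -1.54 ± 1.33 (SE), with an adjusted p of 0.422 by edgeR. Tagln overlaps Pcsk7, a convertase gene, over 2480 bases, and Pcsk7 had 0 counts in sperm and 3.85 and 1.24 in testes. The other genes of contractile cells had far fewer counts. Acta2, smooth muscle actin, had 3 and 2 in testes and 0 in sperm, and Myh11, a smooth muscle myosin, had 4 and 1 in testes and 1 in sperm replicate 2.

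Of the matrix genes, Col1a2 had 2 and 1 counts in testes, Col3a1 had 0 and 1, and Dcn, a small proteoglycan, had 0 and 3, each with 0 in sperm, while Col1a1 and Col4a1 were in no table. Without Tagln, 7 peritubular genes had 9 and 8 counts in testes and 1 in sperm, where the testes level would have given 5.01 over sperm replicates 2 to 4. The peritubular sum was 519, 80.0, 209 and 0 ppm in sperm and 201 and 185 ppm in testes, a ratio of 0.499 for sperm replicates 2 to 4 and of 1.05 with replicate 1 included. Without sperm replicate 3 the ratio was 0.207.

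Endothelial and macrophage genes were at or near the limit of the tables. Pecam1 and Vwf, an adhesion molecule and a clotting factor of vessel walls, and Ptprc, a surface phosphatase of leukocytes, were in none of the 6 tables. These 3 defining markers were thus not detected, where 3 counts in testes were 9.30 and 9.55 ppm. Cd68, a lysosomal protein of macrophages, had 2 counts in each testes sample and 0 in sperm. At the testes level it would have given 1.18 counts over sperm replicates 2 to 4.

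**Figure D2:**
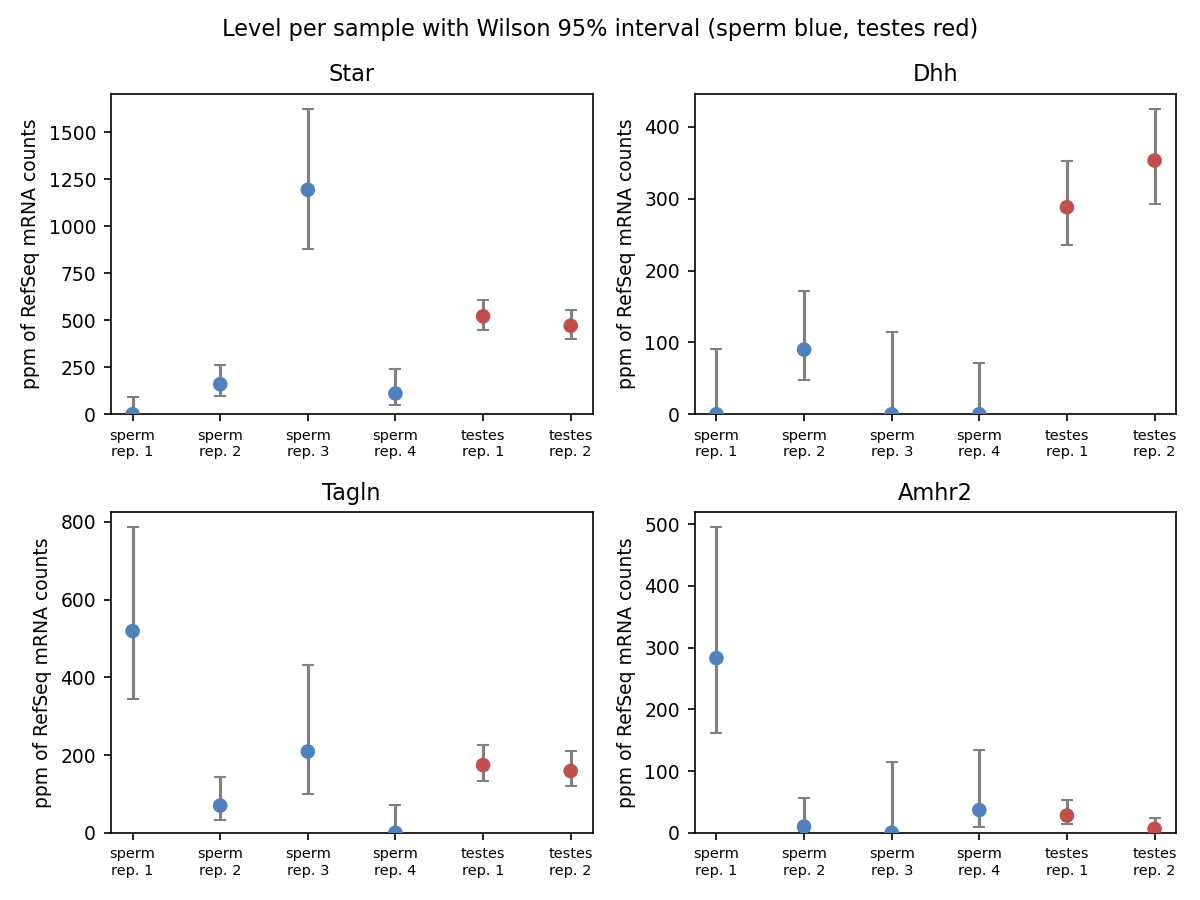
Level of Star, Dhh, Tagln and Amhr2 in each sample, in ppm of RefSeq mRNA counts, with Wilson 95% intervals, which cover counting error only. The highest sperm sample is replicate 3 for Star (1194 ppm), replicate 1 for Tagln and Amhr2 (519 and 283 ppm) and replicate 2 for Dhh (90.0 ppm), and for Tagln replicate 3 (209 ppm) is also above both testes samples.

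The second comparison asked which members were found at all. The tables listed 2, 11, 2 and 4 members in sperm replicates 1 to 4, and for testes they listed 25 and 29. As a share of the 40 this was 5.00%, 27.5%, 5.00% and 10.0% in sperm and 62.5% and 72.5% in testes. Over the 21031 protein-coding genes of RefSeq, the tables listed 9.54%, 31.8%, 7.34% and 15.7% in sperm and 57.8% and 54.5% in testes. The share of members lay below that of protein-coding genes in each sperm sample and above it in each testes sample, and this difference was not tested. With counts thinned to 33511 in each sample, 3.96 ± 2.11 members (SD, n = 3) were listed in sperm and 11.5 ± 1.00 (SD, n = 2) in testes. The ratio was 0.345, and over RefSeq mRNA genes it was 0.543 at that depth.

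**Figure D3:**
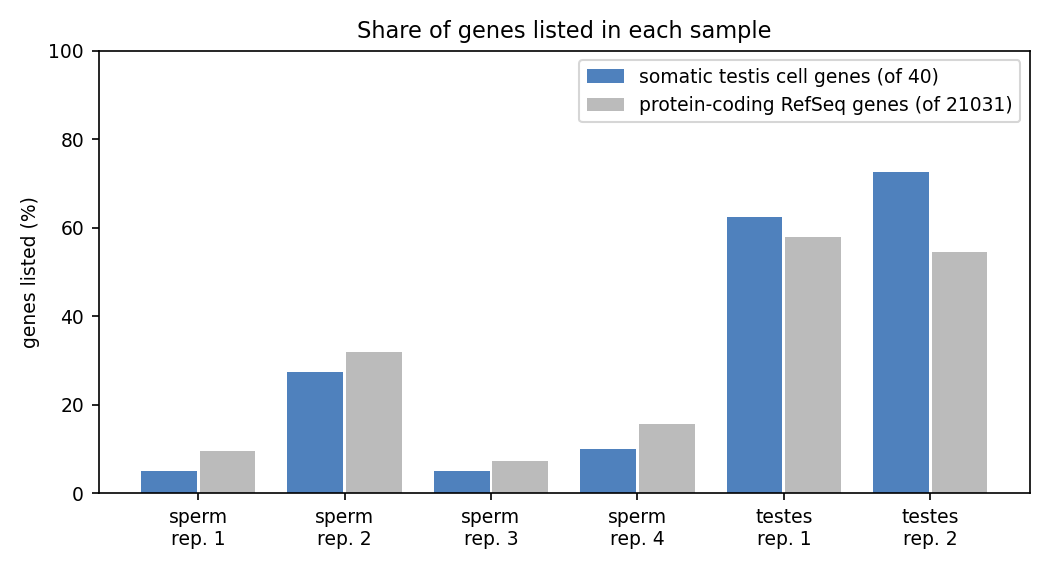
Percent of the 40 somatic testis cell genes (blue) and of the 21031 protein-coding RefSeq genes (grey) listed in each sample. The blue bars are below the grey in all 4 sperm samples, which also had the smaller totals, and above the grey in both testes samples.

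Of the 31 members in the tables, 14 were in both testes samples and in no sperm sample, which is 45.2%, against 26.8% of all 14455 RefSeq mRNA genes in the tables. Another 10 were in both testes samples and in sperm, 6 were in 1 testes sample alone, and Sox9 was in sperm alone. Every sperm sample compared lay below both testes samples for 17 of the 31 (54.8%), against 38.6% of 14430 RefSeq mRNA genes. Most of these members were near the limit of counting, since 25 of the 31 had fewer than 10 counts in each testes sample. In sperm, 11 members were listed, 6 had 3 or more counts in some sample, and Star and Tagln had 3 or more in at least 2 sperm samples.

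**Figure D4:**
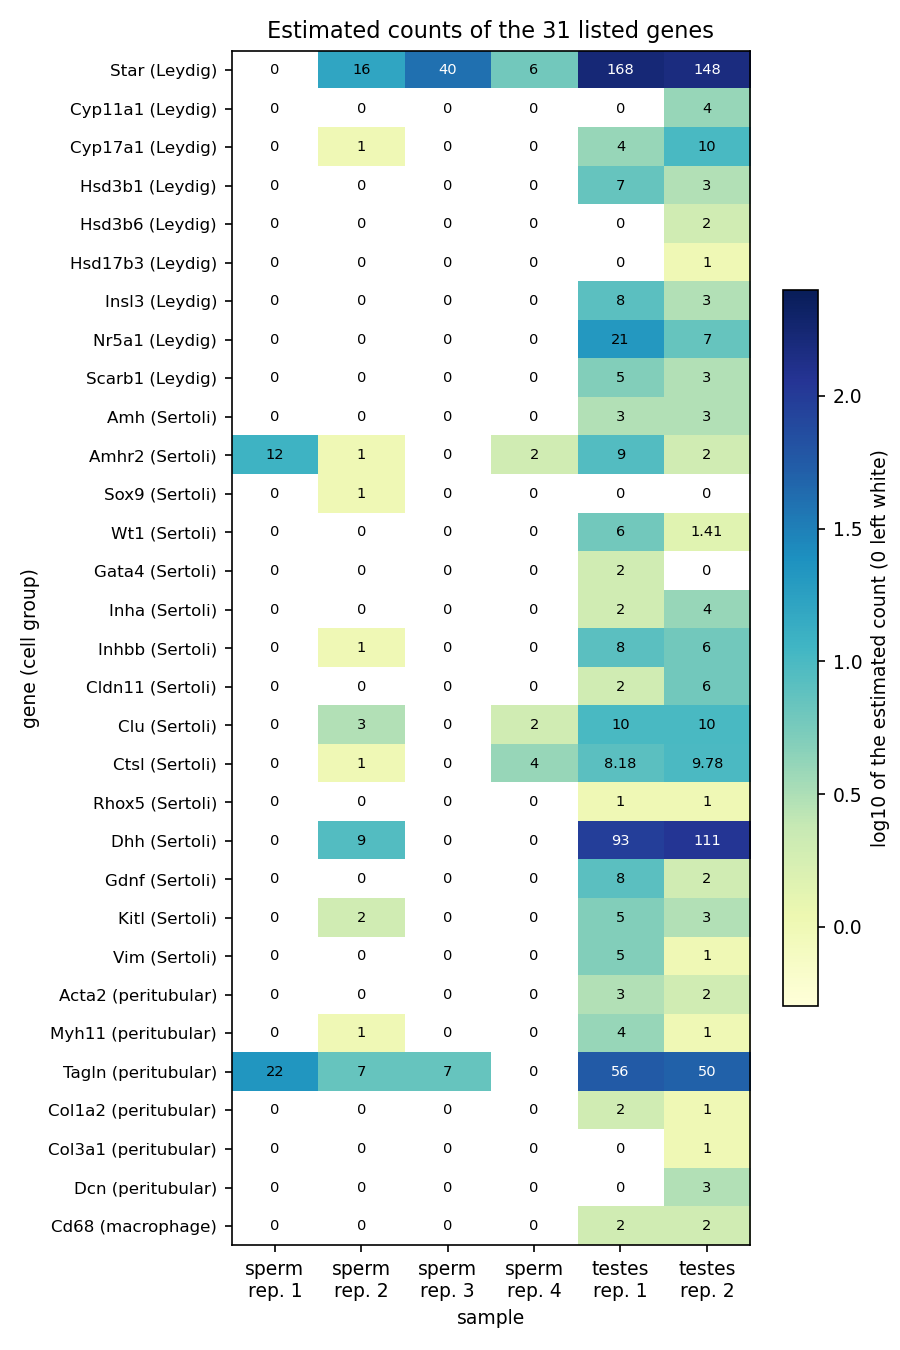
Estimated counts of the 31 members in the tables, by gene and sample, as log10 of the count with 0 left white. Star, Dhh and Tagln stand out in testes with 50 to 168 counts, and most cells of the sperm columns are white.

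Across all genes, 24432 were tested by edgeR, of which 4910 were RefSeq mRNA genes. Only 7 members passed the filter on low values, Star, Insl3, Amhr2, Clu, Ctsl, Dhh and Tagln, and 33 were not tested. Of the 7, Dhh and Insl3 were called lower in sperm and 0 were called higher, and at an unadjusted p below 0.05 the numbers were again 2 and 0. The share called lower was 17.6% of all genes tested and 20.0% of RefSeq mRNA genes, and the share called higher was 4.15% and 4.34%. With 7 tested members, 2 calls are near that background, and both genes passed the filter only with the testes samples. The median log2 difference was -0.80 over the tested members and -1.22 over RefSeq mRNA genes. Both calls lay close to the threshold, as did 64.7% of all lower calls, which had an adjusted p of 0.045 or more. Leaving out sperm replicate 2 or sperm replicate 3 left 1 call, Dhh, and leaving out sperm replicate 4, testes replicate 1 or testes replicate 2 left 0. DESeq2 gave an adjusted p for 3 of the 7, Star, Dhh and Tagln, and called 0 of them, with an adjusted p of 0.0542 for Dhh.

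Other genes of the same cell types were compared from wider lists. Over all genes tested by edgeR, 17.6% were called lower in sperm and 4.15% higher. With so few genes tested per list, 1 call is no result about a list. Of 17 other genes of Leydig cells and steroid synthesis, 13 were in the tables, 3 were tested, 1 was called lower and 0 higher. Fdx1, the ferredoxin that feeds electrons to Cyp11a1, had 0 counts in each of the 4 sperm samples and 30 and 22 in testes, and was called lower with an adjusted p of 0.0477 by edgeR. Like Lyz2 and Cst8, named below, it passed the filter only through the testes samples, where it was high.

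Of 21 other Sertoli cell genes, 19 were in the tables, 5 were tested and 0 were called in either direction. Rhox8, a homeobox gene, had 80.3, 35.3, 29 and 3 counts in sperm and 29.9 and 7.42 in testes, with an adjusted p of 0.167 by edgeR. The list summed to 584 ± 364 ppm (SD, n = 3) in sperm and 253 ± 27.5 ppm (SD, n = 2) in testes. The ratio was 2.31, and 0.819 without Rhox8, which was left out after its values were seen. Rhox8 alone thus set the direction of the ratio of the means. Without it the list had 259, 319.9, 29.8 and 129 ppm in sperm replicates 1 to 4. Testes then had 179.8 and 210.0 ppm, so sperm replicates 1 and 2 stayed above both testes samples and replicates 3 and 4 lay below.

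Of 16 other peritubular and stromal genes, 15 were in the tables and 0 were tested, and they summed to 0, 30.0, 0 and 18.4 ppm in sperm replicates 1 to 4 and to 97.4 and 141 ppm in testes, a ratio of 0.135. Of 12 other endothelial genes, 6 were in the tables, and they summed to 189, 42.5, 0 and 0 ppm in sperm replicates 1 to 4 and to 177 and 85.8 ppm in testes. Sperm replicate 1 was above both testes samples and the other 3 sperm samples were below. Cd34, a sialomucin of vessel walls, had 0, 3, 0 and 0 counts in sperm and 40 and 16 in testes, and its adjusted p was 0.199 by edgeR. Of 18 other macrophage and leukocyte genes, 12 were in the tables, 4 were tested and 1 was called lower, against 17.6% of all genes tested. Their sums were 94.4, 160.0, 209 and 202 ppm in sperm replicates 1 to 4 and 160.0 and 162 ppm in testes. Lyz2, a lysozyme of macrophages, had 7 and 5 counts in testes and 0 in sperm, and was called lower with an adjusted p of 0.0477 by edgeR. C1qb, a complement subunit of macrophages, had 0, 8, 0 and 7 counts in sperm and 9 and 7 in testes. Scaled for depth this was 0, 80.0, 0 and 129 ppm in sperm and 27.9 and 22.3 ppm in testes. Its log2 difference was 1.16, in the other direction from Lyz2, with an adjusted p of 0.625 by edgeR. Of 8 red blood cell genes, 2 were in the tables, with 1 count in all in sperm.

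Cells of the ducts from which sperm were taken were also looked for. Of 29 genes of epididymal and vas deferens epithelium, 16 were in any table. The 20 at 0 in every sperm sample include those in no table. Sperm tables listed only 7.34 to 31.8% of protein-coding genes, so zeros were common there. They summed to 613, 322, 477 and 331 ppm in sperm replicates 1 to 4 and 183 and 274 ppm in testes, so each sperm sample was above both testes samples. This rested on a single gene. Akr1b7, an aldo-keto reductase abundant in the mouse vas deferens, had 21, 19.2, 7 and 8 counts in sperm and 6.06 and 3 in testes, with a log2 difference of 3.19 and an adjusted p of 0.140 by edgeR. Without it, left out after its values were seen, the list summed to 118, 130.0, 269 and 184 ppm in sperm and 164 and 264 ppm in testes, and the groups overlapped. Of these genes 7 were tested, 1 was called lower (Cst8, adjusted p 0.0477 by edgeR) and 0 higher, against 17.6% and 4.15% of all genes tested. The part of such cells in the levels of Star, Tagln, Amhr2 and Clu in sperm was not tested.

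**Figure D5:**
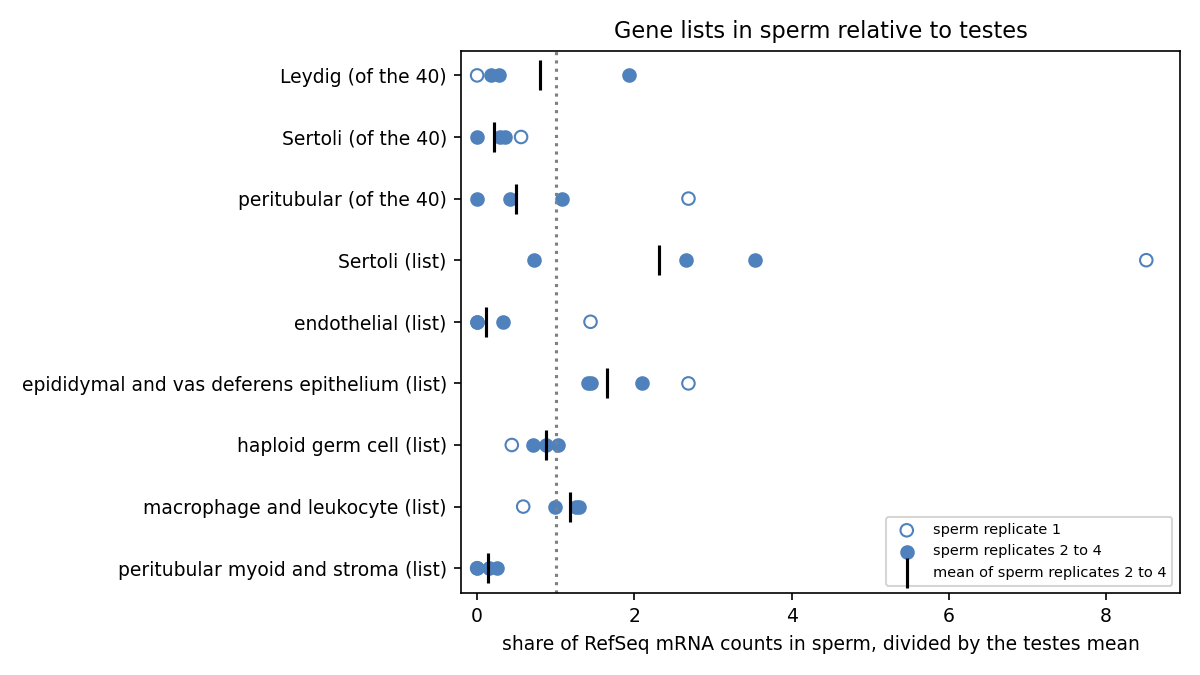
Summed level of each plotted gene list in each sperm sample divided by its testes mean, with the mean of sperm replicates 2 to 4 as a bar and equality as a dotted line. The peritubular and endothelial lists had ratios of 0.135 and 0.108 over sperm replicates 2 to 4, but sperm replicate 1 was above both testes samples for the endothelial list (189 ppm), and the other Sertoli list, led by Rhox8, had a ratio of 2.31.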

How the data were processed

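The 6 samples were grouped by their titles. Sequencing was strand-specific and paired-end. The authors deposited, per transcript and sample, an unscaled estimated count that is not always whole, FPKM and transcript length. The methods name SOAPaligner/SOAP2, whereas the submitters' processing notes name HISAT and mm10. The counting program and the use of strand are not given in the sources used here. Tables list only transcripts with a value, so an absent transcript was taken as 0.

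Counts were summed per gene and transcript class, rounded for tests, and fitted over all genes with edgeR 4.0.16 (TMM factors, quasi-likelihood) for sperm replicates 2 to 4 against both testes samples, keeping genes with FPKM of at least 1 in 2 samples. Calls needed a Benjamini-Hochberg adjusted p below 0.05 and a fold above 2. The SE beside an edgeR difference was not fitted by edgeR. It is the size of the difference divided by the square root of the test's F statistic. It is therefore approximate, most of all for genes with few or no counts in sperm. Alternatives used DESeq2 1.42.0, limma 3.58.1 on log2(FPKM + 1) or log2(FPKM + 0.1), other filters and scalings, and samples left out. The code was tested on simulated counts. Other versions were R 4.3.3 and Python 3.11.15, with scipy 1.17.1, numpy 2.4.6, pandas 2.3.3 and matplotlib 3.10.9. All 34 member transcripts matched GRCm38.p6 by accession, which gave the coordinates.

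Members and lists were chosen with earlier results of these data known, so no test was made over a list. Values in every sample are given for the 3 members of each cell group with the highest testes FPKM (both for groups of 2), for members with 3 or more counts in at least 2 sperm samples, and for called members. Of the other lists, the 2 genes highest in testes and the 2 highest in sperm could be named, and a result on the Leydig list is not reported here. Counts of the remaining members are given to account for all 40. Wilson intervals (95%) and floors cover counting error only, since PCR copies are not independent molecules. Labels give no batch. Per the methods, the sperm samples were pools of separate groups of mice and testes of these mice formed both testes samples, so p-values measure the spread between pools and not between single mice.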

Additional observations from a re-analysis of the deposited data

Results flagged for a closer look

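In 10 tests of the 4 sperm samples for a value far from the others (Dixon's ratio at its 95% limit), 4 stood apart, although the Leydig sum repeats Star and the ratio of Dhh was fixed by its zeros. Chance alone passes that limit in about 1 in 20 tests for normal values of equal precision. These levels rest on few counts at unequal depth, so the 4 cannot be set against that rate. Star stood at 1194 ppm of RefSeq mRNA counts in sperm replicate 3 (ratio 0.866), and the summed Leydig cell genes stood at the same 1194 ppm there (ratio 0.858), since Star gave all of their counts in that sample. Amhr2 stood at 283 ppm in sperm replicate 1 (ratio 0.870), on 12 counts. Dhh stood at 90.0 ppm in sperm replicate 2 (ratio 1.00), on 9 counts with 0 in the other sperm samples, which fixes the ratio at 1.00, and replicate 2 was also the deepest sperm sample.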

How the results depend on the processing

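Depth limited most members, with 25 of the 31 in the tables under 10 counts in each testes sample. The number of members called lower was 2, and again 2 with RLE factors or all 4 sperm replicates. It was 1 with library size alone (Dhh), 1 with limma at either pseudocount and with edgeR on RefSeq mRNA alone (Insl3), 0 with DESeq2 (which gave an adjusted p for 3 of the 7), without a filter or with at least 10 counts in all, and 0 to 1 when a replicate was left out. Members called higher were 0 throughout. Replicate numbers are shared by 2 pairs, whose deviations correlated at -0.0115 and -0.0786. The deviations of the 2 testes samples mirror each other, so this cannot tell whether a pair shared mice. With the replicate block and all 4 sperm replicates 1 member was called lower, Star (-3.64, adjusted p 0.0440 by edgeR), and calls over all genes went from 4835 lower and 742 higher without the block to 1113 and 453. Sperm replicates 3 and 4 have no testes sample of the same number, so the block absorbs them. The blocked difference thus rests on sperm replicates 1 and 2, where Star had 0 and 160.0 ppm. The 1194 ppm of sperm replicate 3 did not enter it. The log2 difference of Amhr2 turned to 0.02 with at least 10 counts, 1.49 with all 4 sperm replicates, 1.60 with the block and, without a replicate in turn, ran from -1.21 without testes replicate 2 to 0.15 without sperm replicate 3. That of Ctsl ran from -0.94 without testes replicate 1 to 0.02 and 0.10 without sperm replicate 2 or 3. The cause was not tested. The peritubular ratio was 1.05 with all 4 sperm replicates. Mean members listed in testes, 27.0 as deposited, were 18.0 at 3 or more counts and 11.5 after thinning. With a replicate left out, ratios of sperm to testes ran from 0.260 to 0.692 for all members, 0.227 to 1.10 for Leydig, 0.145 to 0.323 for Sertoli and 0.207 to 0.748 for peritubular genes.

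Over all genes, 4306 were called lower and 1013 higher. The numbers were 2181 and 1134 with DESeq2, 924 and 420 without a filter, and 1019 and 859 with at least 10 counts. They were 1565 and 479 without sperm replicate 2, 2566 and 1748 without sperm replicate 3, and 580 and 393 without sperm replicate 4. They were 835 and 260 without testes replicate 1, and 627 and 253 without testes replicate 2. The median log2 difference over all genes was -1.24, and -1.13 with library size alone, -1.39 with RefSeq mRNA alone and -2.51 with limma at a pseudocount of 0.1.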
